A study of Mus musculus with 18 samples.

Results

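C/EBPα and C/EBPβ are basic leucine zipper transcription factors of the CCAAT/enhancer binding protein family, and both drive blood cells towards the granulocyte and macrophage fates. They bind DNA as dimers through nearly identical basic regions, as homodimers, as heterodimers with each other, or with partners of the ATF and CREB families, and the palindrome-like core TTGCNNAA, in which each dimer subunit reads one side, is the element they are best known for. In myeloid cells they often occupy the same enhancers together with PU.1, the ETS factor encoded by *Sfpi1*. The comparison described here asks how far C/EBPα and C/EBPβ occupied the same places at 48 hours post-induction (hpi), by which time the induced cells resemble macrophages.

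Both libraries came from C10 cells, a pre-B cell line derived from HAFTL cells that carries C/EBPα fused to the estrogen receptor hormone-binding domain together with GFP. β-estradiol moves the fusion into the nucleus, and the labels give 100 nM β-estradiol in phenol-red-free medium with 10 nM IL-3 and CSF-1 (the study's methods give another β-estradiol concentration), while control cells received 0.1% ethanol. The 2 of 18 ChIP-seq libraries that were compared are C/EBPα (antibody sc-61) and C/EBPβ (antibody sc-150), each at 48 hpi, both sequenced on a GAIIx. The fusion and the cell's own C/EBPα cannot be told apart in these reads, and the cells represent a single line. The other libraries of the time course (C/EBPα, C/EBPβ and PU.1 at 0, 3, 12 and 24 hpi, and PU.1 at 48 hpi) serve as readouts that played no part in choosing the bins, except that the 0 hpi libraries restrict 1 list of sites named below.

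The C/EBPα library held 7971996 reads of 36 bases and the C/EBPβ library 5075832 reads of 40 bases. With 1 read kept per position and strand, 7760300 and 4945144 reads remained on chromosomes 1 to 19, so the C/EBPα library was thinned at random to 4945144 reads, and the 2815156 C/EBPα reads left over (36.3%) were kept aside as a second sample of the same library. Read 5′ ends were moved 75 bp inward and counted in 200-bp bins of mm9. Of 12361722 bins, the 19630 (0.159%) with 8 or more reads in either library were compared. Each factor had 1 library, so no difference between the factors has a replicate check or a p-value. The 95% intervals of reads (exact Poisson) cover counting error only, reads being no independent molecules. Those of shares (exact Clopper-Pearson) treat bins as independent. Neighbouring bins often belong to 1 site (13323 sites in all), so these intervals can be too narrow. The antibodies differ, so the efficiency of an antibody and the occupancy of its factor cannot be told apart.

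C/EBPβ had the higher count in most bins, and few bins held C/EBPα in clear excess. There were more C/EBPβ reads in 16949 bins (86.3%, 95% interval 85.9 to 86.8), more C/EBPα reads in 2402 (12.2%), and equal counts in 279. On the scale log2(reads + 1), used for all differences between bins here, the median C/EBPβ minus C/EBPα difference was 1.32, which is 2.5-fold, and its 5th and 95th percentiles were -0.74 and 3.17. C/EBPβ was at least 4-fold higher in 5398 bins (27.5% of those compared) and C/EBPα in 237 bins (1.21%). Another 6571 bins (33.5%) were within 2-fold, and 7424 lay between 2-fold and 4-fold. Scaling the full C/EBPα library to the same total in place of thinning it left 107 bins with C/EBPα at least 4-fold higher. Measured from the median difference of 1.32 in place of 0, the split turned around, with C/EBPα 4-fold higher in 1053 bins (5.36%) and C/EBPβ in 658 (3.35%).

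**Figure D1:**
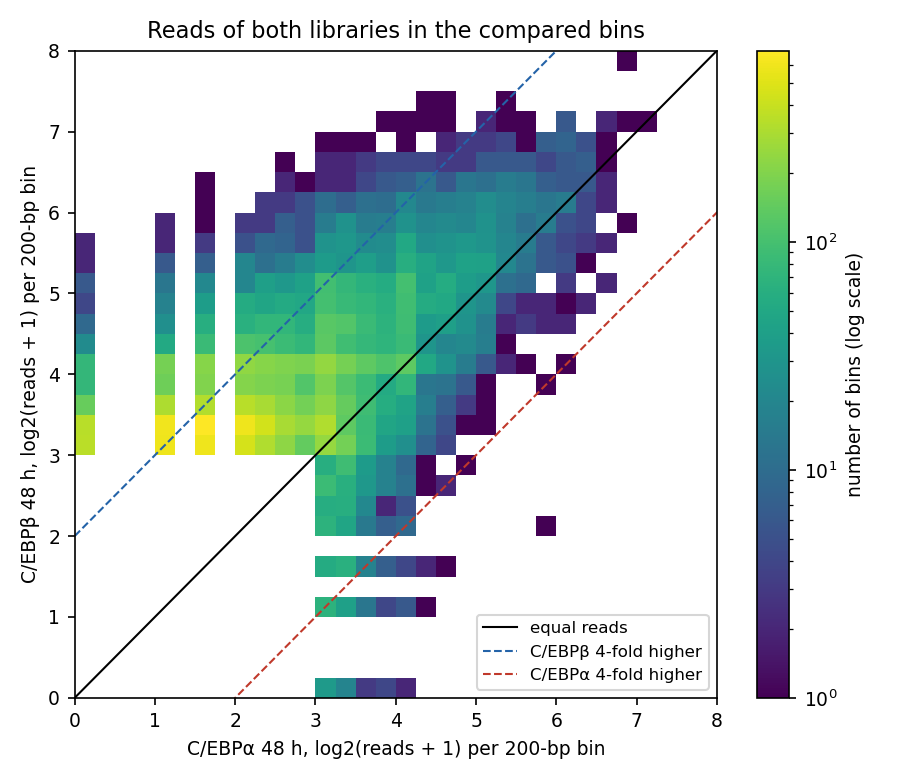
Each compared 200-bp bin is placed by its C/EBPα reads (x axis) and C/EBPβ reads (y axis) at 48 hpi, both as log2(reads + 1) at 4945144 reads per library, with colour for the number of bins and lines at 4-fold. Most of the 19630 bins lie above the diagonal, 5398 beyond the upper line and 237 beyond the lower one.

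The sites of C/EBPα were mostly sites of C/EBPβ as well, while the reverse held less often at this depth. Of 7138 bins with 8 or more C/EBPα reads, 5853 (82.0%) also had 8 or more C/EBPβ reads, and these made up 31.9% of the 18345 bins that reached 8 C/EBPβ reads. The rule's minimum of 8 reads admits a bin more easily through the stronger library. C/EBPβ was in excess on both sides of it: where the larger count was 7, which kept a bin out, 77.5% of 5139 bins had more C/EBPβ reads, and where it was 8, 82.9% of 3320 did. These shares do not show how far the minimum shaped the excess, which was not tested.

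The excess of C/EBPβ was smaller in bins with more reads of both libraries, which the minimum of 8 reads in part builds in, because a bin of 8 to 15 reads in all passed it through 1 library alone. In bins with 8 to 15 reads of both libraries together, the median difference was 1.58 and C/EBPβ was at least 4-fold higher in 35.9% of 8423 bins. In the 1144 bins with 64 or more reads, the median was 0.88, C/EBPβ was at least 4-fold higher in 201 (17.6%), C/EBPα in none, and 53.4% were within 2-fold. A higher minimum did not lower the excess: at minimums of 6, 8 and 12 reads in either library, the medians over all compared bins were 1.22, 1.32 and 1.32, and C/EBPβ had more reads in 80.5%, 86.3% and 88.3% of bins. The C/EBPα calls were therefore weak sites: 207 of the 237 had 8 to 15 reads in all, with a median of 9 C/EBPα and 1 C/EBPβ reads. The 5398 C/EBPβ bins had medians of 1 and 13, and the bins within 2-fold had 10 and 12.

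The whole of the compared bins took 3.11% of the thinned C/EBPα reads, 3.03% of the left-over C/EBPα reads and 6.77% of the C/EBPβ reads, from 0.159% of the bins. Before induction the same bins held 1.03% of C/EBPα and 1.02% of C/EBPβ reads. The C/EBPα share was highest at 3 hpi (4.41%) and 12 hpi (4.19%) and was 3.30% at 24 hpi, whereas the C/EBPβ share went from 2.24% at 3 hpi through 2.66% and 4.26% to its 48 hpi value. The PU.1 libraries placed between 2.37% and 3.57% of their reads there. Since the bins were chosen at 48 hpi, the shares of other time points describe these bins and not all binding at those times.

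Relative to the same factor at the neighbouring time, the difference between the factors was large. With every library thinned to 3040876 reads and bins chosen in the same way, C/EBPα and C/EBPβ at 48 hpi were 4-fold apart, in either direction, in 29.9% of bins. C/EBPα at 24 and 48 hpi were 4-fold apart in 6.89% of bins, and C/EBPβ at 24 and 48 hpi in 7.21%. At 3 hpi the factors were 4-fold apart in 18.9% of bins, nearly all on the C/EBPα side (18.7%), and at 24 hpi in 15.5%. After removal of each pair's median difference the values were 8.75% for the factors at 48 hpi, 12.1% at 24 hpi and 3.95% at 3 hpi, against 5.08% for C/EBPα and 2.95% for C/EBPβ between 24 and 48 hpi. Of the 1000 strongest bins of each library, 47.9% were shared by the factors at 48 hpi, 47.1% at 24 hpi and 58.4% at 3 hpi, and 65.9% and 68.1% by the later libraries of C/EBPα and C/EBPβ.

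The DNA under the bins separated the groups. The C/EBP core TTGCNNAA, searched on both strands and spelled with N for any base, occurred in 9.28% of all 200-bp bins of the genome and in 31.2% of the compared bins. It was present in 1983 (36.7%, 35.4 to 38.0) of the bins where C/EBPβ was at least 4-fold higher, in 27.1% of those within 2-fold, and in 11 (4.64%, 2.34 to 8.15) of those where C/EBPα was at least 4-fold higher. Among all bins with the same GC content as each group, the share was 8.23%, 7.59% and 5.01%. In the 1053 bins with C/EBPα 4-fold higher relative to the median, 10.8% held the core, against 5.99% of bins of the same GC content, so whether the C/EBPα side held the core more often than other DNA of its composition depended on the scaling.

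The sequences under the clearest examples are shown in stretches of 60 bases from the mm9 genome, with 1 match of the core in capitals, as examples of the groups. The first 5 belong to sites where C/EBPβ far exceeded C/EBPα: chr14:32529272-32529331 in an intron of *Ankrd28* (nearest start *Hacl1*), chr4:102364046-102364105 near *Sgip1*, chr10:15026054-15026113 in the gene-poor stretch nearest to *Nmbr*, chr16:20724452-20724511 near *Thpo*, and chr4:47362005-47362064 near *Tgfbr1*, all on the plus strand. The next is the only one of the 10 clearest C/EBPα sites that held the core, chr1:156903475-156903534 (plus strand), nearest to *Ier5*. The last 5 come from strong sites with both factors within 2-fold: chr3:157725280-157725339 (minus strand) at *Lrrc40*, chr11:68685468-68685527 (minus strand) at *Ndel1*, chr11:76401061-76401120 (minus strand) in an intron of *Abr*, chr3:83689338-83689397 (plus strand) near *Tlr2*, and chr2:167579701-167579760 (minus strand) in the distal region downstream of *Cebpb*.
Hacl1, C/EBPβ higher: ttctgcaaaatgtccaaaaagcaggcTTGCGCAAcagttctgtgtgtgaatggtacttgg
Sgip1, C/EBPβ higher: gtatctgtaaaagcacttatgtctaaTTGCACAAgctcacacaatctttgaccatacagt
Nmbr, C/EBPβ higher: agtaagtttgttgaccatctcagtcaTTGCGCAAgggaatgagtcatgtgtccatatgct
Thpo, C/EBPβ higher: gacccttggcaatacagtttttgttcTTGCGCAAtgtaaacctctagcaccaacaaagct
Tgfbr1, C/EBPβ higher: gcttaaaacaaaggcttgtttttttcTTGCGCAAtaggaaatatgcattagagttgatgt
Ier5, C/EBPα higher: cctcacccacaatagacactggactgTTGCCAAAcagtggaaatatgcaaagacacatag
Lrrc40, within 2-fold: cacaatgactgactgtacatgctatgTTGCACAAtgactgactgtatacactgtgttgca
Abr, within 2-fold: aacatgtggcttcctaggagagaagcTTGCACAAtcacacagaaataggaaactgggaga
Ndel1, within 2-fold: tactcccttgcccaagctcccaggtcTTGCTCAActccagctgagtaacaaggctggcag
Tlr2, within 2-fold: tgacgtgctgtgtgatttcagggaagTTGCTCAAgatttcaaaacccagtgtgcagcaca
Cebpb, within 2-fold: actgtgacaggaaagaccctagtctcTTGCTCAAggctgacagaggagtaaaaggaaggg
In 4 of the 5 C/EBPβ sequences the capitals read TTGCGCAA, the full palindrome with CG at its centre. The fifth reads TTGCACAA, as do the shared sites of *Lrrc40* and *Abr*, and those of *Ndel1*, *Tlr2* and *Cebpb* read TTGCTCAA. The stretches at *Hacl1* and *Ndel1* hold a further match in lower case. The central CG was not confined to one group, since 3 of the 10 strong shared sites also held TTGCGNAA, among them the third by reads, at *Btbd19*, which lies in a UTR and is not printed.

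The central CG marked the bins with C/EBPβ in excess more generally, a split that was chosen after these sequences had been seen. The form TTGCGNAA occurred in 0.173% of all bins of the genome, in 664 (12.3%, 11.4 to 13.2) of the bins with C/EBPβ at least 4-fold higher, in 2.10% of those within 2-fold, and in 1 (0.422%) of those with C/EBPα at least 4-fold higher. The palindrome TTGCGCAA, present in 0.0162% of all bins, was found in 4.85%, 0.609% and none of the 3 groups. In strong bins, of 64 or more reads, TTGCGNAA was present in 92 of 201 (45.8%) where C/EBPβ was at least 4-fold higher and in 27 of 611 (4.42%) within 2-fold.

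Taken from the side of the sequence, the 1071 compared bins whose only cores had the central CG had a median C/EBPβ minus C/EBPα difference of 2.12, and C/EBPβ was at least 4-fold higher in 56.4% of them (53.4 to 59.4). The 4912 bins with other cores alone had a median of 1.32 and 26.9% (25.6 to 28.1), hardly apart from the 13499 bins without any core (1.19 and 25.3%). Within the CG forms the medians were 2.17 for TTGCGCAA (370 bins), 2.15 for TTGCGTAA (385), 1.93 for TTGCGAAA (273) and 1.22 for TTGCGGAA (37), whereas those of the 12 other forms lay between 1 and 1.58. TTGCACAA, the most frequent of these (1218 bins), had the value 1.58.

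The difference between the core forms was present within classes of strength, composition and position. Among bins of 64 or more reads the medians were 2.06 for the CG forms and 0.82 for the others, with C/EBPβ at least 4-fold higher in 55.1% of 147 and 11.1% of 522. At a GC content of 40 to 50% they were 2.17 and 1.32, beyond 1 kb from any transcription start site (TSS) 2.14 and 1.32, and within 1 kb 1.89 and 1.38. Without thinning, C/EBPβ was at least 4-fold higher in 52.0% of bins with any CG form and 23.8% of those with other cores.

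Libraries that had no part in the choice of bins showed the same order of the core forms at 3, 12 and 24 hpi. In bins with the central CG, mean C/EBPα was 10.8 normalised reads (reads per 10000000 reads of the library) at 0 hpi, 27.0 at 3 hpi, 20.3 at 12 hpi, 14.6 at 24 hpi and 13.6 in the left-over reads of 48 hpi. Mean C/EBPβ in the same bins was 8.78, 16.5, 22.7 and 35.4 at 0, 3, 12 and 24 hpi, and 55.0 at 48 hpi, where it had helped to choose them. C/EBPα was thus highest early and C/EBPβ late. In bins with other cores, mean C/EBPα was 4.55, 28.5, 26.1, 20.7 and 19.3, and mean C/EBPβ 4.53, 13.3, 15.7, 26.6 and 42.4, over the same times. The log2 ratio of C/EBPβ to C/EBPα over these bins was -0.29, -0.71, 0.16, 1.28 and 2.01 with the central CG and 0.00, -1.10, -0.73, 0.36 and 1.14 with other cores, so that only at 0 hpi were the forms in the opposite order. Bins with the central CG also had more reads of both factors before induction, and fewer PU.1 reads at 48 hpi (7.36 normalised reads against 15.6); the part of either in the difference was not tested.

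**Figure D2:**
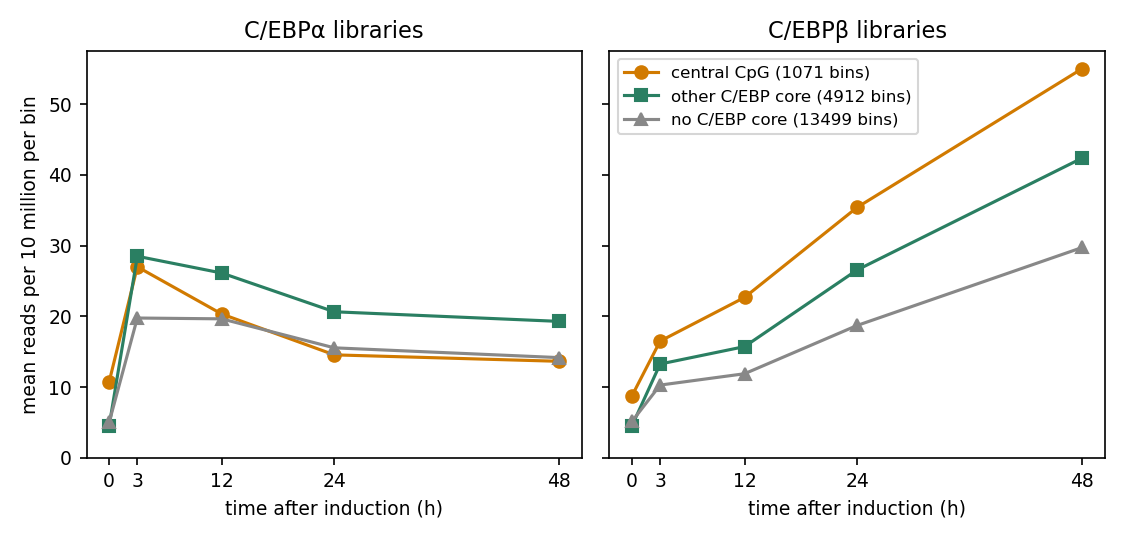
Mean normalised reads (per 10000000 reads of the library) per 200-bp bin (y axis) are plotted against hours after induction (x axis) for C/EBPα and C/EBPβ, in 1071 compared bins with a central-CG core, 4912 with other C/EBP cores and 13499 without a core; the 48 h value of C/EBPα uses the left-over reads. C/EBPβ ends highest in the central-CG bins, at 55.0, where C/EBPα goes from 27.0 at 3 h to 13.6.

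Other words were more frequent in the bins within 2-fold. They were searched on both strands as well, and none of them contains another, although the PU.1 and ETS words share the letters GGAAGT. PU.1 letters (GAGGAAGT) were in 8.25% of them, in 3.72% of the bins with C/EBPβ at least 4-fold higher and in 1.20% of all bins. AP-1 letters (TGACTCA), the site of FOS and JUN dimers, stood at 11.03%, 8.28% and 3.14%, and RUNX letters (TGTGGTT) at 9.51%, 5.63% and 4.73%. In bins of 64 or more reads the intervals of the shares overlapped: PU.1 letters were in 10.1% (7.87 to 12.8) of those within 2-fold and 5.47% (2.76 to 9.58) of the C/EBPβ bins, AP-1 letters in 12.8% (10.2 to 15.7) and 8.46% (5.00 to 13.2), and RUNX letters in 8.51% (6.42 to 11.01) and 6.47% (3.49 to 10.8). The median difference of such strong bins was 0.85 with PU.1 letters, 0.89 with AP-1 letters and 0.66 with RUNX letters, beside 0.88 for all of them. In contrast, the composite words in which a C/EBP subunit pairs with an ATF subunit were more frequent on the C/EBPβ side: TGATGNAA was in 11.9% of the C/EBPβ bins and 7.21% of those within 2-fold (3.65% of all bins), and TGACGNAA in 3.67% and 2.10% (0.347% of all bins). This order did not hold in bins of 64 or more reads, where TGATGNAA was in 8.96% (5.39 to 13.8) of the C/EBPβ bins and 11.6% (9.19 to 14.4) of those within 2-fold, and TGACGNAA in 2 of 201 and 21 of 611.

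**Figure D3:**
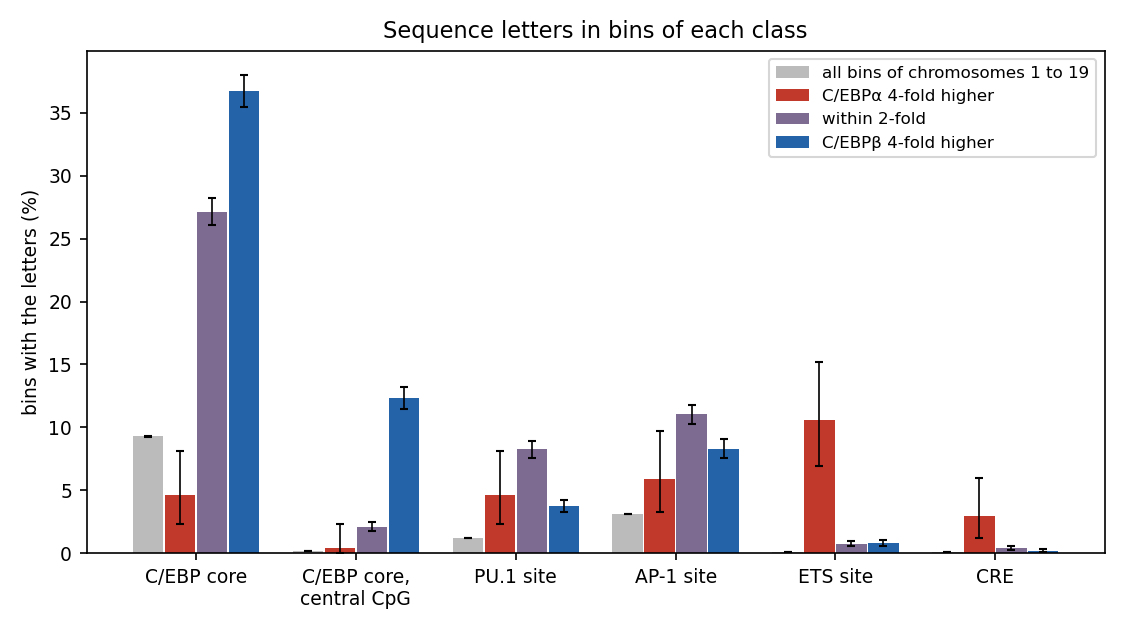
Bars show the percent of 200-bp bins (y axis, from 0) that hold each word on either strand, in all bins of the genome and in compared bins with C/EBPα at least 4-fold higher, within 2-fold and with C/EBPβ at least 4-fold higher; lines are 95% Clopper-Pearson intervals. The C/EBP core stands at 4.64%, 27.1% and 36.7% in the 3 groups, and the ETS word at 10.5% in the C/EBPα group and below 1% in the others.

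PU.1 reads at 48 hpi, which the choice of bins did not use, followed the same division. In the 6170 bins with 0 to 3 PU.1 reads the median difference was 1.74 and C/EBPβ was at least 4-fold higher in 41.9%. With 4 to 15 PU.1 reads the values were 1.32 and 26.5%, with 16 to 63 reads 0.87 and 14.5%, and in the 1274 bins with 64 or more they were 0.58 and 9.18%, with 59.0% of bins within 2-fold. Bins with more PU.1 were also stronger, with medians of 14, 17, 21 and 24 reads of both factors together in these 4 classes. Within the 1144 bins of 64 or more C/EBP reads, the medians across the PU.1 classes were 1.55, 1.18, 0.74 and 0.51, and within those of 8 to 15 reads they were 1.87, 1.58, 1.26 and 1.14. The excess of C/EBPβ was thus smaller where PU.1 was higher in both of these classes of strength. The classes keep the bins already high at 0 hpi that are described below. Some of these were also high in PU.1, such as the site nearest to *Pgk2*, with 2850 normalised PU.1 reads over all its bins. Their part in these medians was not tested.

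In mean profiles around the bins, both factors peaked at the sites within 2-fold. There the mean count within 100 bp of the centre was 8.26 times that beyond 800 bp for C/EBPα, 8.63 times for C/EBPβ and 6.86 times for PU.1. The 48 hpi values of both factors include the reads that formed the groups. Their difference within a called group, and the peak of both factors within 2-fold, are therefore set by the rule. Around the C/EBPβ bins C/EBPα stood at 2.97 times, with a dip over the bin itself, against 13.3 times for C/EBPβ. Around the C/EBPα bins C/EBPα reached 7.65 times and C/EBPβ 0.77 times its surroundings. At 0 hpi C/EBPα already stood at 3.05 times its surroundings in these bins, and at 3.50 times in the C/EBPβ bins, while C/EBPβ at 0 hpi stood at 1.60 and 3.08 times.

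**Figure D4:**
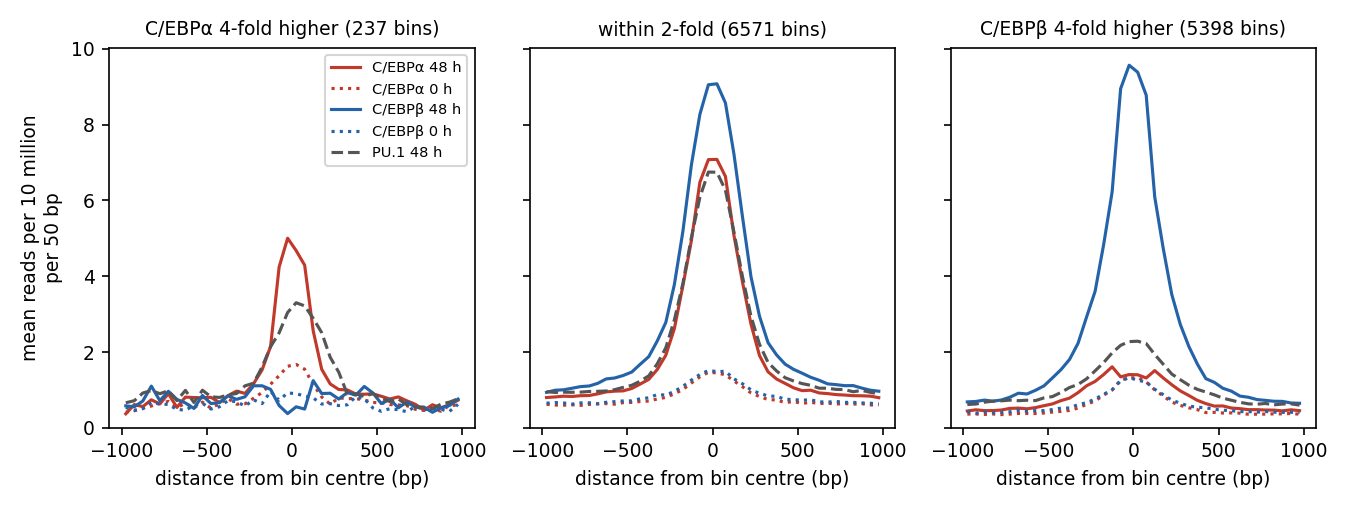
Mean normalised reads (per 10000000 reads of the library) in steps of 50 bp (y axis) are plotted against the distance from the bin centre in bp (x axis, 1 kb to each side) for the 237 bins with C/EBPα at least 4-fold higher, the 5398 with C/EBPβ at least 4-fold higher and the 6571 within 2-fold. The 48 h reads of both factors formed the groups. The low C/EBPβ in the first group, the low C/EBPα over the second and the peak of both factors in the third are set by that choice.

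The order of the factors at 48 hpi held at 24 hpi in both called groups, but in the C/EBPβ bins it was absent at 0 hpi and the reverse at 3 hpi. In the 237 C/EBPα bins, C/EBPα at 24 hpi had a mean of 13.1 normalised reads and C/EBPβ 3.90, and the left-over C/EBPα reads of 48 hpi gave 13.2, below the 21.1 of the thinned reads that had chosen the bins. In the 5398 C/EBPβ bins, C/EBPβ at 24 hpi had a mean of 19.9 and C/EBPα 7.43, although at 3 hpi C/EBPα had been higher, at 14.8 against 8.88, and at 0 hpi they were level, at 5.11 against 5.03. The left-over C/EBPα reads gave 7.24 there, above the 4.45 of the thinned reads, and the log2 ratio of C/EBPβ to C/EBPα was 2.34 with the former and 3.04 with the latter. In the bins within 2-fold, C/EBPα had 31.4 at 3 hpi and 28.0 at 24 hpi and C/EBPβ 15.1 and 25.4. Over all compared bins the log2 ratio of C/EBPβ to C/EBPα reads was -0.01, -0.97, -0.66 and 0.37 at 0, 3, 12 and 24 hpi, and 1.16 with the left-over C/EBPα reads at 48 hpi. The C/EBPβ reads of 48 hpi in the ratios 2.34 and 1.16 had helped to choose the bins. Both values can therefore still lean towards C/EBPβ. At 3 hpi C/EBPα was thus the higher in every group, with a ratio of -0.74 in the C/EBPβ bins, -1.05 within 2-fold and -1.18 in the C/EBPα bins. In the C/EBPα bins the ratio was already -0.88 at 0 hpi.

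The C/EBPα bins lay near gene starts more often than the other groups. Of the 237, 148 (62.4%, 55.9 to 68.6) lay within 1 kb of a TSS of a protein-coding gene, against 15.04% of the C/EBPβ bins, 14.5% of those within 2-fold and 3.18% of all bins, and their median distance from a TSS was 190 bp. Their median GC content was 61.5%, compared with 46% and 48%. The share near a TSS was 73.8% without thinning, but 37.2% relative to the median, 40.9% with a minimum of 6 reads, 44.6% at 2-fold and 47.4% in 400-bp bins. The word CCGGAAGT, bound by ETS factors other than PU.1 at many housekeeping promoters, was in 25 of them (10.5%), all 25 within 1 kb of a TSS, while 0.778% of the C/EBPβ bins, 0.730% of those within 2-fold and 0.714% of all bins of the same GC content held it. These shares do not account for nearness to a TSS: of the 195 compared bins with the word, only 75 lay over 1 kb from one. The full CRE word TGACGTCA was in 7 of the C/EBPα bins (2.95%, 1.20 to 5.99), against 0.380% of all bins of the same GC content. Nearness to a TSS is not accounted for here either: only 2 of the 7 lay over 1 kb from one, and 40 of the 80 compared bins with the word. The short CTCF word CCNCNAGG was in 22.4%, close to the 19.8% of bins of the same GC content.

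Composition moved with the difference over all compared bins. In bins of under 40% GC the median difference was 1.58 and C/EBPβ was at least 4-fold higher in 37.2%, and in the 1176 bins of 60% GC or more the median was 0.58 and C/EBPα was at least 4-fold higher in 134 (11.4%). No control library was used, the reads of the 2 libraries differed in length, and the part of GC content in the excess of either factor was not tested.

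In 944 bins (4.81%) both factors had at 0 hpi at least 50% of their 48 hpi normalised reads, which a factor with 0 reads at 48 hpi meets at any level. Of these 248 lay on chromosome 11, 199 in its first 5 Mb, and chromosome 11 had the lowest median difference (1, or 1.18 without these bins, against 1.19 to 1.49 on the other chromosomes). They included 9 of the 10 sites within 2-fold with the most reads, at *Sfi1* (5 sites), *Gm10800*, *Gm10801*, *Gm5614* and in the stretch nearest to *Pgk2*, so the strongest shared sites are given below without them, a restriction chosen after the values were seen. Leaving all of them out gave 87.2% of bins with more C/EBPβ reads.

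Neighbouring bins were joined into 13323 sites, each named by the nearest protein-coding TSS, with negative distances upstream. C/EBPβ was at least 4-fold higher at 3774 sites and C/EBPα at 206, and 4208 were within 2-fold. The counting interval of the read ratio lay above 1 at 6846 sites and below 1 at 312. It lay beyond 4-fold at 266 sites for C/EBPβ and at 1 site for C/EBPα.

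The 10 clearest C/EBPβ sites had 36 to 96 C/EBPβ reads and at most 3 C/EBPα reads. A site at chr6:106755001-106755200, -5032 bp from the start of *Crbn*, which encodes the substrate receptor cereblon of a ubiquitin ligase, had 0 C/EBPα and 51 C/EBPβ reads, with the interval of the ratio starting at 13.3. The site in the intron of *Ankrd28*, a regulatory subunit gene of protein phosphatase 6, had 2 and 96 reads. The second of these holds the palindrome shown above, and the first holds no core.
The site 6200 bp from the start of *Thpo*, which encodes thrombopoietin, had 0 and 40 reads, and that at -3994 bp from *Tgfbr1*, a TGF-β receptor gene, 1 and 54. The site 546073 bp from the start of *Nmbr*, the neuromedin B receptor gene, had 1 and 62. All of them carry TTGCGCAA.
The remaining sites were at *Sgip1* (1 and 71 reads), at -712 bp from the natriuretic peptide receptor gene *Npr1* (2 and 82), at -336 bp from *Fdxr*, the gene of mitochondrial ferredoxin reductase (2 and 71), in an intron of the adenosine kinase gene *Adk* (0 and 36) and in an intron of *Maml3*, which encodes a Notch coactivator (3 and 80). Of the 10 sites, 6 held the core and 5 the form TTGCGNAA, and 2 lay within 1 kb of a TSS.
The left-over C/EBPα reads, which had no part in ranking the sites, gave 0 to 17.8 normalised reads. C/EBPβ had 72.8 to 194 in the same units, but these are the reads that ranked the sites. At 24 hpi C/EBPβ ranged over the 10 sites from 16.4 normalised reads at the *Nmbr* site to 128 at the *Maml3* site. C/EBPα ranged from 0 to 16.2 at the same 2 sites.

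The 10 clearest C/EBPα sites were weaker, with 13 to 33 C/EBPα and at most 4 C/EBPβ reads, and 8 of them lay within 1 kb of a TSS. The site at the start of *Nsfl1c*, which encodes the p97 cofactor p47, had 27 C/EBPα reads and 1 C/EBPβ read, the only site whose interval for the C/EBPα to C/EBPβ ratio began above 4, at 4.45. Its left-over C/EBPα reads came to 46.2 normalised reads. At the start of *Ap1g1*, a clathrin adaptor subunit gene, there were 33 and 4 reads, and 67.5 normalised reads in the left-over reads.
*Btbd8* and the checkpoint clamp gene *Hus1* each had 15 and 0 reads at their starts, *Acn9*, which encodes a succinate dehydrogenase assembly factor, 13 and 0, and *Nfix*, a nuclear factor I gene, 13 and 0 at 2115 bp from its start. *Pih1d2* and the immediate early gene *Ier5* (at 43266 bp) had 17 and 1. At *Btbd8* the left-over reads gave only 7.10 normalised reads.
*Vdac1*, the gene of a mitochondrial outer membrane channel, had 16 and 0 reads in its site, and *Cops7b*, of the COP9 signalosome, 17 and 1. At *Cops7b*, C/EBPα had 26.6 normalised reads at 0 hpi against 35.5 in the left-over reads of 48 hpi.

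The strongest sites within 2-fold that were lower at 0 hpi had 106 to 161 C/EBPα reads and 160 to 239 C/EBPβ reads. A site at *Lrrc40* had 141 C/EBPα and 239 C/EBPβ reads, and one at *Btbd19* 129 and 215. At *Ndel1*, a dynein regulator gene, there were 153 and 195, and in an intron of *Selp*, the gene of P-selectin, 161 and 160. The ratio of reads at *Selp* was 0.99, with an interval from 0.79 to 1.24.
The site at -43611 bp from *Tlr2*, a bacterial lipoprotein receptor gene of macrophages, had 127 and 214 reads, and the region downstream of *Cebpb* (nearest start *Tmem189*) 123 and 212. Introns of *Abr*, which encodes a GTPase-activating protein of Rac, and of *Galnt9* had 148 and 190, and 106 and 207. The site in *Fes*, a myeloid tyrosine kinase gene, had 107 and 201. Of these 10 sites, 9 held the core and 3 the form TTGCGNAA.
In the *Tlr2* site C/EBPα went from 6.94 normalised reads at 0 hpi to 290 at 3 hpi and 257 at 24 hpi, and C/EBPβ from 9.59 to 153 and 365. At the region downstream of *Cebpb*, C/EBPα had 295 and C/EBPβ 100.3 at 3 hpi, and at 24 hpi they had 338 and 312, so that C/EBPα was still the higher there.

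The 34 mm9 windows that the study displayed or tested gave 30 bins with a smaller excess of C/EBPβ. Their median difference was 0.43, from -1.34 to 2.82, against 1.32 over all compared bins and 0.88 over those of 64 or more reads, with 21 of 30 bins having more C/EBPβ reads, 20 within 2-fold, 1 past 4-fold for C/EBPβ and 0 for C/EBPα. The interval of the ratio lay above 1 in 10 bins, below 1 in 2, and held 1 in 18. These windows were chosen by the study on these libraries and are not an independent sample of sites.

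*Sfpi1*, which encodes PU.1, held bins on both sides. In the intron bin chr2:90938401-90938600, 1563 bp past the last annotated start, there were 18 C/EBPα and 133 C/EBPβ reads, a ratio of 7.39 with an interval from 4.50 to 12.9. In the bin chr2:90923201-90923400, -13637 bp from the same start and 735 bp past an earlier annotated one, there were 75 and 35 reads, with a C/EBPα to C/EBPβ ratio of 2.14 (1.42 to 3.30). Its distance from the last start is close to that of the URE, the upstream enhancer that the study names for this gene. PU.1 itself had 105 normalised reads at the upstream bin and 7.84 at the intron bin at 48 hpi. At the intron bin C/EBPα had 40.5 normalised reads at 0 hpi and 28.4 in the left-over reads of 48 hpi, while C/EBPβ went from 28.8 to 269. At the upstream bin C/EBPα went from 32.4 to 142.
The intron bin holds the core shown here, chr2:90938493-90938552 on the minus strand, printed because it is the only one of the 30 bins past 4-fold. Over all 11 compared bins of *Sfpi1*, C/EBPβ was at least 4-fold higher in 4.
Sfpi1, C/EBPβ higher: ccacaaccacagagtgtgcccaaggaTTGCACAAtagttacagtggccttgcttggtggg

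The 3 bins downstream of *Cebpb* itself had 60 and 101, 40 and 121, and 9 and 16 reads of C/EBPα and C/EBPβ. *Fgd4*, which encodes a GEF of Cdc42, had 47 and 18 reads, the lowest difference, and *Csf1r*, the CSF-1 receptor gene, 18 and 8, with an interval of the C/EBPα to C/EBPβ ratio that held 1 (0.93 to 5.98). *Sla*, which encodes an adaptor, had a C/EBPα to C/EBPβ ratio of 1.60 (0.89 to 2.95).
At several genes of the windows the counts were nearly equal: 85 and 72 at *Nfe2*, 70 and 67 at *Ehd1*, 36 and 37 at the macrophage elastase gene *Mmp12*, 30 and 29 at the cathepsin D gene *Ctsd*, and 22 and 20 at *Tyrobp*, the gene of the adaptor DAP12. C/EBPβ was higher at the cytokine gene *Il1b* (32 and 83), at *Gadd45b* (11 and 38), and at *Nfat5* (9 and 28). The 2 bins of *Fos* had 13 and 38, and 17 and 28, the latter with a C/EBPβ to C/EBPα interval that held 1 (0.87 to 3.21).

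**Figure D5:**
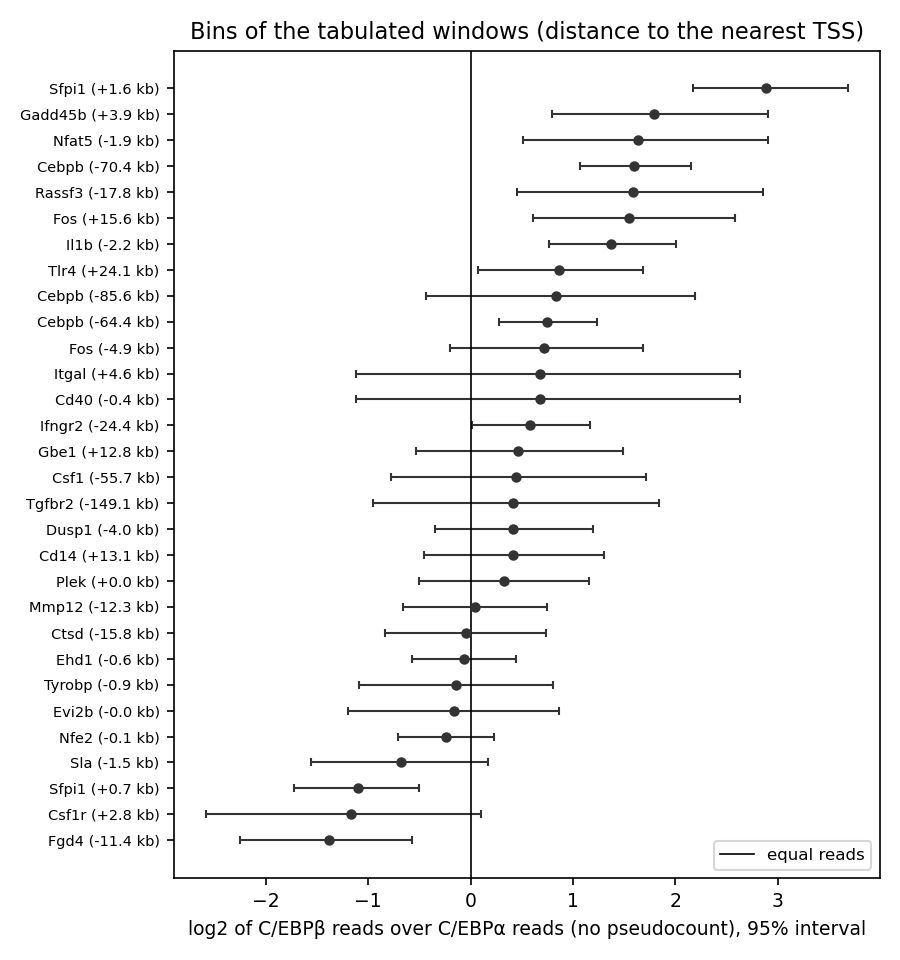
Shown are 30 bins of the windows that the study displayed or tested. Points give the log2 ratio of C/EBPβ to C/EBPα reads at 48 h without a pseudocount (x axis), with its 95% counting interval. The y axis gives the gene and the distance of the bin from the nearest TSS. For the *Cebpb* bins this is the TSS of *Tmem189*, and for the *Sfpi1* bin with more C/EBPα reads an earlier annotated start of *Sfpi1*. The 2 bins of *Sfpi1* lie far apart, with a C/EBPβ to C/EBPα ratio of 7.39 in one and the reverse ratio of 2.14 in the other, and the intervals of 18 bins cross the line of equal reads.

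Lists of genes with known roles were read by the compared bins whose nearest TSS within 100 kb was theirs, beside all 17519 such bins (median difference 1.30, C/EBPβ at least 4-fold higher in 27.1%, C/EBPα in 1.29%). The lists were chosen with earlier results of these data known, and their counts are descriptions without a test. Amino acid response genes, the set that ATF4 and its C/EBP partners are known to serve, had a median of 1.70 over 82 bins, with C/EBPβ at least 4-fold higher in 31 (37.8%, 27.3 to 49.2) and C/EBPα in none. Granule and lysosomal genes had the lowest value of the larger lists, 0.93 over 105 bins with 15 (14.3%, 8.22 to 22.5) for C/EBPβ and 1 for C/EBPα.
Between them stood macrophage receptors (1 over 219 bins, 37 and 1), inflammatory mediators (1 over 202, 46 and 0), myeloid transcription factors (1.18 over 110, 27 and 1), lipid handling genes (1.21 over 60, 18 and 0), B cell genes (1.22 over 69, 20 and 2) and AP-1 and ATF genes (1.32 over 65, 11 and 2). Genes of the C/EBP family had 5 bins in all, at 3 genes, with a median of 0.63 and no bin past 4-fold. The bins downstream of *Cebpb* described above have *Tmem189* as nearest start and are not among them. *Ddit3*, which encodes CHOP, had 42 C/EBPα and 46 C/EBPβ reads over its bins.

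Genes that charge tRNAs with amino acids made up much of the first list. Over their compared bins, the seryl-tRNA synthetase gene *Sars* had 3 C/EBPα and 68 C/EBPβ reads, *Iars* 15 and 104, *Mars* 30 and 161, *Aars* 12 and 75, and *Cars* 7 and 40. C/EBPβ was at least 4-fold higher in both bins of *Sars*, *Iars*, *Aars* and *Cars*. *Shmt2*, of mitochondrial serine use, had 5 and 43 reads. The asparagine synthetase gene *Asns*, with 22 and 76, and the stress-induced *Chac1*, with 36 and 112, were nearer to the median of all bins.
The C/EBPβ reads of *Sars* lay over a composite C/EBP-ATF word, TGATGCAA, at chr3:108247093-108247152 (minus strand) in an intron, and those of *Mars* over a CG core at chr10:126750074-126750133 (minus strand). They are printed as the strongest bins of their genes.
Sars, C/EBPβ higher: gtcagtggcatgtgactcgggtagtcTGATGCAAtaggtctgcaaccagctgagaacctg
Mars, C/EBPβ higher: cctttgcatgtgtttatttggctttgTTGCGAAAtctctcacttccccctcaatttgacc

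Among regulators, *Nfkb1*, which encodes the p105 and p50 subunit of NF-κB, had 12 C/EBPα and 84 C/EBPβ reads with 5 of 6 bins past 4-fold, and the progenitor factor gene *Myb* 31 and 218 with 4 of 6. *Pax5*, the gene of the B cell identity factor, had 29 and 109 reads with 4 of 6. *Runx1* had the most reads of its list, 175 and 360 over 23 bins with 5 past 4-fold, and *Nfe2* was level at 149 and 152. Of the 2 bins of *Irf8*, which encodes a macrophage factor, 1 was past 4-fold for C/EBPα, with 10 and 1 reads.
Among secreted factors, *Il12b* (9 and 63 reads) and the chemokine gene *Ccl9* (14 and 74) were on the C/EBPβ side. At *Il6* the strongest bin was level, with 80 and 76. *Csf1*, the gene of the macrophage growth factor, had its clearest bin at -27913 bp, with 3 and 53 reads.
The neighbouring lysozyme genes differed from each other, with 29 and 111 reads at *Lyz2* and 110 and 119 at *Lyz1*.
The bin of *Csf1* carries a CG form of the core, shown here from chr3:107591198-107591257 (plus strand, intergenic) because it is the clearest bin of that gene.
Csf1, C/EBPβ higher: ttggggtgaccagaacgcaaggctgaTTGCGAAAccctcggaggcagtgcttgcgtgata

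Of the 219 bins of macrophage receptors, 102 were within 2-fold and 178 had more C/EBPβ reads, beside 5895 and 15082 of the 17519 bins of all genes. Some receptor and enzyme genes had nearly level counts. The complement receptor gene *C3ar1* had 84 and 77 reads, *P2ry6* 83 and 66, and the gelatinase gene *Mmp9* 68 and 60. The strongest bin of the lipid droplet gene *Plin2* had 87 and 103. *Clec5a*, with 21 and 87 reads, was on the C/EBPβ side. *Tlr4*, with 89 and 219, and the integrin gene *Itgam*, with 47 and 102, lay near the median of all bins. At *Tlr4*, 5 of 13 bins were past 4-fold for C/EBPβ, beside 27.1% of the bins of all genes.
The genes with the most bins past 4-fold for C/EBPβ were *Itpr1* (10 of 16 bins), *Klrb1b* (10 of 12) and *Ssh2* (10 of 24), named here after their values were seen. For C/EBPα no gene had more than 2, and *Nsfl1c* and *Vdac1* had 2 of 2.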

How the data were processed

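ChIP-seq reads of C/EBPα and C/EBPβ at 48 hpi were compared in C10 cells. The authors aligned reads to mm9 with ELAND or Bowtie (no mismatches), kept unique reads, removed identical ones and deposited 1 line per aligned read with its position and strand. These read positions are not normalized, and no control library was used. Which aligner made which library is not given in the sources used here. The submitters' processing notes also name HOMER. The deposited C/EBPα library of 48 hpi still held 15009 repeats (0.188% of its reads) of an already listed position on one strand, and that of 3 hpi 287019 (2.51%), against 0 in the C/EBPβ libraries of both times; they were removed here.

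From the deposited positions, counts per 200-bp bin were made: 1 read per position and strand, 5′ ends moved 75 bp, C/EBPα thinned with a fixed seed, and bins with 8 or more reads in either library compared on log2(reads + 1). A call is a 4-fold difference. Counting in bins without a control keeps mapping and GC effects of each library in the counts, and the 4-fold calls of weak bins rest on few reads. Sites joined bins with at most 1 bin between them. GENCODE vM1 supplied the TSSs (protein-coding genes), and NCBIM37, the same build, the sequences. Depth was 4945144 reads per library after thinning. With 1 library per factor there was no test.

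Named sites were the 10 per direction with the ratio interval farthest from 1, the 10 within 2-fold with the most reads, the strongest bin of each of the study's windows, and listed genes with the most reads or largest difference. The bins and lists were chosen with earlier results of these data known. The central-CG split, the strong sites restricted to those lower at 0 hpi, the PU.1 classes by strength and the extra sequences were chosen after values were seen. The counting was tested on simulated data. Python 3.11.15, NumPy 2.4.6, SciPy 1.17.1, pandas 2.3.3 and matplotlib 3.10.9 were used. Alternatives covered duplicates, read shift, bin size and start, minimum, thinning, scaling, fold, pseudocount and local background. An item withheld for evaluation is not reported here.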

Additional observations from a re-analysis of the deposited data

How the results depend on the processing

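The measures (bins compared, calls of each factor, bins with more C/EBPβ reads, and word and TSS shares) were recomputed under 15 alternatives, 2 of them chosen after seeing the data. Of 134 values 91 stayed within the spread allowed (1.5 times for a count, the 95% interval for a share) and 43 moved. The 30 bins of the study's windows were recomputed with another seed and without thinning only, and their log2 ratios stayed within their 95% counting intervals, but the near-equal bins of *Evi2b*, *Ehd1* and *Mmp12* changed sign. Centring on the median turned the split of the calls from a C/EBPβ to a C/EBPα majority. Minimums of 6 and 12 reads gave 34009 and 10675 compared bins, 1116 and 54 for C/EBPα and 8288 and 3072 for C/EBPβ; a 2-fold call gave 744 and 12315, centring on the median 1053 and 658, and for C/EBPα 400-bp bins gave 682 and no thinning 107. Bins with more C/EBPβ reads were 85.4% (all reads as deposited), 80.5% and 88.3% (minimums of 6 and 12), 81.3% (400 bp), 90.2% (no thinning), 87.9% (equal reads outside the bins) and 87.2% (without bins high at 0 hpi); centring gives no such share. The core was in 8.65% (400 bp), 10.8% (centred) and 9.27% (2-fold) of C/EBPα bins, and in 32.03%, 42.7% (minimums), 46.3% (400 bp), 39.2% (no thinning), 40.9% (centred), 34.7% (2-fold) and 38.7% (4 times the surrounding 10 kb) of C/EBPβ bins. TTGCGNAA was in 9.42%, 16.5%, 13.6%, 13.9%, 16.3% and 8.72% of C/EBPβ bins under the first 6 of these. The C/EBPα share near a TSS was 40.9%, 75.9%, 47.4%, 73.8%, 37.2% and 44.6% under the same, and the C/EBPβ share 16.05% (minimum of 12) and 13.1% (400 bp). The cause of these moves was not tested, beyond the number of bins that each setting admits. Fragment lengths estimated from the strands were 141 bp for C/EBPα and 116 bp for C/EBPβ, and shifting by each library's own value moved no measure. No paired analysis was possible because the labels carry no replicate numbers and each factor and time point has 1 library.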
